A study of Mus musculus with 4 samples.

Results

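The MS4A genes described here are the 8 genes *Ms4a1*, *Ms4a4b*, *Ms4a4c*, *Ms4a6b*, *Ms4a4a*, *Ms4a6c*, *Ms4a6d* and *Ms4a7*, which were taken by name from the raw gene counts of mouse B220+ splenocytes. They are 8 of the 41214 genes in the table, and all 8 were among the 14554 genes with enough counts to be tested. *Ms4a1* encodes CD20 and was treated as the B cell member. *Ms4a4b*, *Ms4a4c* and *Ms4a6b* were treated as members of lymphocytes and of the interferon response, and the other 4 as members of macrophages and monocytes. RNA-seq was done on B220+ splenocytes of MIZ-1WT mice and of MIZ-1△POZ mice without stimulation, and each genotype had 2 libraries. In MIZ-1△POZ mice the Cre recombinase of the *Mb1* (*Cd79a*) locus removes the floxed POZ domain of MIZ-1 (*Zbtb17*), so the deletion is meant for B cells and other splenocytes keep an intact gene. The lines were kept on a C57BL/6 background, and experiments were done on young adult animals, with no age or sex given for a library. The sources used here do not say whether the MIZ-1WT animals carried Cre. The cells were picked by a B220 antibody and magnetic beads, with no further sort.

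MS4A proteins cross the plasma membrane several times, carry both ends inside the cell, and sit in complexes with immune receptors. CD20 lies next to the B cell receptor on mature B cells, shapes its calcium signal, and is the target of rituximab. Other members are carried by T cells, monocytes, macrophages and mast cells, where they modify signals of receptors such as the high-affinity IgE receptor and Dectin-1.

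The 4 libraries held between 43026814 and 46387209 counts on genes. The labels call them biological duplicates, and p-values below measure only the spread between these libraries. Levels are given as CPM, read counts scaled to a common library total by the TMM method, and changes as the log2 ratio of MIZ-1△POZ over MIZ-1WT. *Zbtb17* itself was counted at 47.1 ± 1.09 CPM (SD, n = 2) in MIZ-1WT and 37.7 ± 0.533 CPM in MIZ-1△POZ, or -0.32 as a log2 fold change (Benjamini-Hochberg adjusted p = 0.00857 by the edgeR quasi-likelihood test). These counts cover the whole gene and do not show the deleted exons. *Xist* had 49 and 60 counts in MIZ-1WT and 38145 and 40838 in MIZ-1△POZ, so the sex of the mice and the genotype cannot be told apart in any comparison below. Pan-B cell markers summed to 9100 and 9192 CPM in MIZ-1WT and 7222 and 7690 CPM in MIZ-1△POZ, so all 4 libraries carried the labelled cell type. Macrophage markers were also present in every library, at 979.7 and 1305 CPM in MIZ-1WT and 5839 and 3649 CPM in MIZ-1△POZ.

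Both genes with the highest levels were lower in the MIZ-1△POZ libraries, *Ms4a1* at 0.853 and *Ms4a4c* at 0.751 times the MIZ-1WT level. *Ms4a6b* rose 1.34-fold, and 3 of the 4 myeloid members rose between 2.11-fold and 3.41-fold. *Ms4a4b* and *Ms4a4a* did not pass the test. In all, 6 of the 8 members differed at an adjusted p under 0.05, where 40.0% of all genes tested did. Of these, 4 were higher, against a background of 21.1%, and 2 were lower, against 18.9%. The CPM of the 2 genotypes did not overlap for any of the 8 members, which was also true of 74.8% of all genes tested. The median log2 fold change was 0.36 over the members and -0.01 over all genes tested, whose quartiles were -0.23 and 0.33.

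**Figure D1:**
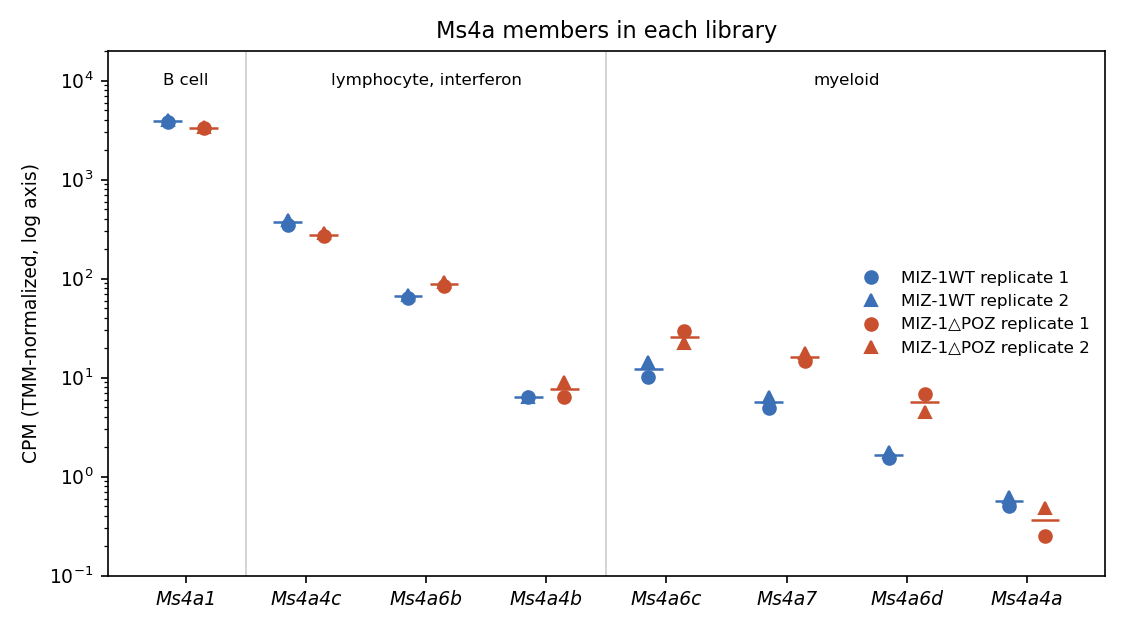
CPM (TMM-normalized, log axis) of each Ms4a member in the 4 libraries, with circles for replicate 1, triangles for replicate 2 and bars for the mean of a genotype. Ms4a1 sits near 3917 CPM in MIZ-1WT and 3339 CPM in MIZ-1△POZ, while the myeloid members lie below 30 CPM and Ms4a6c, Ms4a7 and Ms4a6d are higher in both MIZ-1△POZ libraries.

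All 8 members lie in 1 cluster of chromosome 19 that spans 678.6 kb from *Ms4a10* to *Ms4a3* in the GENCODE annotation of GRCm38, and they arose by gene duplication, so some share long stretches of sequence. In the coding sequence, *Ms4a4b* and *Ms4a4c* were 91.7% identical, *Ms4a6b* and *Ms4a6c* 85.0%, and *Ms4a6b* and *Ms4a6d* 79.4%, while *Ms4a1* was between 44.5% and 47.9% identical to the other 7. The stretch of 75 coding bases where the *Ms4a6* genes were most alike is printed here because the counts of these 3 genes are read apart below. This stretch was picked for its likeness and does not stand for the whole genes. It runs from coding base 98 to 172, joins exons 2 and 3, and has 72 bases in common, with capitals at the 3 positions that differ. The genes lie on chromosome 19 with these bases between 11520436 and 11521695 (*Ms4a6b*, plus strand), between 11471202 and 11472417 (*Ms4a6c*, plus strand) and between 11601940 and 11603195 (*Ms4a6d*, minus strand), the intron included.
Ms4a6b: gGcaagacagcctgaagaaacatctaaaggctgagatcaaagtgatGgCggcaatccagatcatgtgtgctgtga
Ms4a6c: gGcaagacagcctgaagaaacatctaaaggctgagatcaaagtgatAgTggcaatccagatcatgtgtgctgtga
Ms4a6d: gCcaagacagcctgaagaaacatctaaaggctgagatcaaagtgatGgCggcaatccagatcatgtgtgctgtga
The same search over the *Ms4a4* genes found 58 of 75 bases in common, again across exons 2 and 3, from coding base 106 to 180 in *Ms4a4a* and from 97 to 171 in *Ms4a4b* and *Ms4a4c*. Capitals mark the 17 positions that differ among the 3 genes.
Ms4a4a: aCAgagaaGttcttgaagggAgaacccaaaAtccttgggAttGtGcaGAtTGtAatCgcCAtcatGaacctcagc
Ms4a4b: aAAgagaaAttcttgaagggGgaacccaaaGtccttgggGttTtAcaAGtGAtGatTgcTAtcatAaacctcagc
Ms4a4c: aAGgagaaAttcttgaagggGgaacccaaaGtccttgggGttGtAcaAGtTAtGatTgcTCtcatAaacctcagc
The stretch of *Ms4a1* that aligned with these bases of *Ms4a4c* had 45 of 75 bases in common with it, and capitals mark the bases that differ from *Ms4a4c*.
Ms4a1: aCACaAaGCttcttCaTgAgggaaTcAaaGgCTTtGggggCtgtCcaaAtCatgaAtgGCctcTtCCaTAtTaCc

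The reads were sequenced from both ends for 50 bases, and reads without a unique alignment were set aside by the counting. Windows of 50 bases along the annotated transcripts were therefore compared with all other genes of the cluster. In *Ms4a1*, *Ms4a4a* and *Ms4a7* 0 windows were shared with another gene of the cluster. Over all annotated genes, the share was 1.21% in *Ms4a1*, 0% in *Ms4a4a* and 0.306% in *Ms4a7*. Within the cluster, the share was 8.19% in *Ms4a4c*, 2.40% in *Ms4a4b*, 3.57% in *Ms4a6b* and 2.31% in *Ms4a6d*. In *Ms4a6c* it was 51.4%, and 5.85% once windows shared only with the overlapping gene *BE692007* were set aside. That noncoding gene lies on the opposite strand and covers 1088 bases, or 53.1%, of the *Ms4a6c* exons. The strand setting of the counting is not given in the sources used here, so part of the *Ms4a6c* signal is uncertain.

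**Figure D2:**
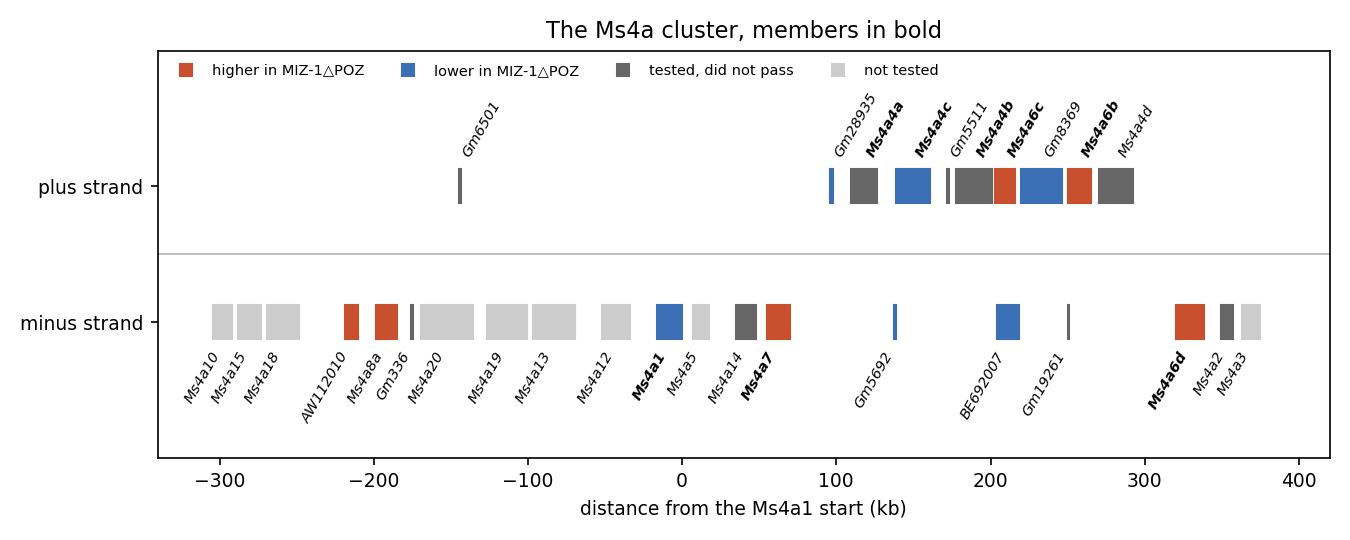
Map of the Ms4a cluster with the distance from the Ms4a1 start in kb on the x axis and the strand on the y axis, drawn for protein-coding genes and other tested genes, with members in bold. Orange genes were higher and blue genes lower in MIZ-1△POZ, and both colours occur within the stretch that holds Ms4a4a, Ms4a4c, Ms4a4b, Ms4a6c and Ms4a6b.

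*Ms4a1* (ENSMUSG00000024673, protein coding, minus strand, chromosome 19 from 11249675 to 11266241) encodes CD20, with 291 codons in its longest coding sequence. Its counts were 166663 and 168677 in MIZ-1WT replicates 1 and 2, and 157468 and 147899 in MIZ-1△POZ replicates 1 and 2. After scaling, the levels were 3821 and 4013 CPM in MIZ-1WT and 3309 and 3370 CPM in MIZ-1△POZ. Both MIZ-1△POZ libraries lay below both MIZ-1WT libraries. The mean fell from 3917 ± 136 CPM (SD, n = 2) to 3339 ± 43.3 CPM. The log2 fold change was -0.23 (standard error 0.06, 95% confidence interval -0.39 to -0.07, Benjamini-Hochberg adjusted p = 0.0365 by the edgeR quasi-likelihood test). In bulk RNA, fewer cells of a type and less RNA of a gene per cell cannot be told apart. The fall was called with all 4 libraries only: with any single library left out it lay between -0.27 and -0.19, and the adjusted p rose to 0.0958 without MIZ-1WT replicate 1, 0.164 without MIZ-1WT replicate 2, 0.107 without MIZ-1△POZ replicate 1 and 0.0815 without MIZ-1△POZ replicate 2.

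The fall of *Ms4a1* had about the size of the fall of other B cell genes. Of 12 pan-B cell markers tested, 9 were lower in MIZ-1△POZ and the other 3 did not pass, with a median log2 fold change of -0.28. *Cd79b*, the signalling partner of membrane immunoglobulin, went from 2051 ± 25.7 to 1752 ± 60.9 CPM (log2 fold change -0.23, adjusted p = 0.0277, edgeR). Set against the summed pan-B cell markers of the same library, *Ms4a1* stood at 42.0% and 43.7% in MIZ-1WT and at 45.8% and 43.8% in MIZ-1△POZ. The pan-B cell markers include *Cd79a*, the locus that carries the Cre, which had a log2 fold change of -1.44 and is named here after its values were seen. Without it the ratios were 43.6% and 45.2% in MIZ-1WT and 46.5% and 44.6% in MIZ-1△POZ, so the genotypes overlapped, and the median of the other 11 markers was -0.27. Markers of follicular B cells had a median log2 fold change of -0.51, with 3 of 5 lower, and all 6 markers of marginal zone B cells were higher, with a median of 0.71. The part of these B cell subsets in the level of *Ms4a1* was not tested.

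The RNA of proteins that stand beside CD20 in the B cell membrane did not always move with *Ms4a1*. Of 12 such genes, 6 were lower, 3 were higher and 3 did not pass the test, with a median log2 fold change of -0.25. *Cr2*, the complement receptor CD21, was one of the higher ones, at 2148 and 2170 CPM in MIZ-1WT and 2472 and 2657 CPM in MIZ-1△POZ (log2 fold change 0.25, adjusted p = 0.0282 from the same edgeR test). Several genes on this list, such as *Cd79b*, are also pan-B cell markers, and *Cr2* is also one of the marginal zone markers above. Of 12 genes for factors known to act on the CD20 gene, 6 were lower, 1 was higher and 5 did not pass, with a median of -0.21. Some of the lower ones are also among the pan-B cell markers above. The higher one was *Pou2af1*, a coactivator of octamer-binding proteins in B cells, which rose from 503 ± 20.4 to 739 ± 14.2 CPM (log2 fold change 0.55, adjusted p = 0.00176, edgeR). *Irf8*, an interferon regulatory factor of B cells and myeloid cells, fell from 626 ± 8.88 to 549 ± 11.9 CPM (log2 fold change -0.19, adjusted p = 0.0254, edgeR).

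Among the lymphocyte members, *Ms4a4c* and *Ms4a4b* are close relatives, and *Ms4a4c* is induced by interferon in several blood cell types. *Ms4a4c* (ENSMUSG00000024675, protein coding, plus strand, chromosome 19 from 11404770 to 11427246) had 15215 and 16434 counts in MIZ-1WT and 12836 and 12555 in MIZ-1△POZ. That was 349 and 391 CPM in MIZ-1WT and 269.7 and 286 CPM in MIZ-1△POZ. Both MIZ-1△POZ values lay below both MIZ-1WT values. The mean fell from 369.9 ± 29.9 CPM (SD, n = 2) to 278 ± 11.6 CPM, a log2 fold change of -0.41 (standard error 0.07, 95% confidence interval -0.58 to -0.24, Benjamini-Hochberg adjusted p = 0.00770 by the edgeR quasi-likelihood test). The call held in 10 of 10 alternatives, between -0.49 and -0.33. Against the summed pan-B cell markers, *Ms4a4c* stood at 3.83% and 4.25% in MIZ-1WT and at 3.73% and 3.72% in MIZ-1△POZ, and without *Cd79a* at 3.98% and 4.40% against 3.79% in both MIZ-1△POZ libraries. Interferon-stimulated genes taken as a list went the other way: 5 of 12 were higher, 7 did not pass, and the median log2 fold change was 0.82. Their summed level was 203 and 128 CPM in MIZ-1WT and 333 and 240.1 CPM in MIZ-1△POZ. The most abundant of them, *Irf7*, did not pass the test (log2 fold change 0.56, adjusted p = 0.0851, edgeR), nor did *Ifit2* (0.57, adjusted p = 0.116, edgeR).

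*Ms4a6b*, which takes part in the costimulation of T cells, rose (ENSMUSG00000024677, protein coding, plus strand, chromosome 19 from 11516512 to 11531256). It had 2792 and 2873 counts in MIZ-1WT and 4015 and 4102 in MIZ-1△POZ, or 64.0 and 68.4 CPM against 84.4 and 93.5 CPM. Both MIZ-1△POZ libraries lay above both MIZ-1WT libraries. The mean went from 66.2 ± 3.08 CPM (SD, n = 2) to 88.9 ± 6.44 CPM, a log2 fold change of 0.43 (standard error 0.07, 95% confidence interval 0.25 to 0.60, Benjamini-Hochberg adjusted p = 0.00716 by the edgeR quasi-likelihood test). Without MIZ-1WT replicate 1 the log2 fold change was 0.38 and the adjusted p 0.0634, so the call was lost there, and it held in the other 9 alternatives.

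*Ms4a4b*, a membrane protein of T cells, had low counts (ENSMUSG00000056290, protein coding, plus strand, chromosome 19 from 11443553 to 11467055). The libraries gave it 276 and 266 counts in MIZ-1WT and 304 and 401 in MIZ-1△POZ, or 6.33 CPM in both MIZ-1WT libraries and 6.39 and 9.14 CPM in MIZ-1△POZ. MIZ-1△POZ replicate 1 lay barely above the MIZ-1WT libraries and replicate 2 well above them. The log2 fold change was 0.29 (standard error 0.19, 95% confidence interval -0.18 to 0.76, Benjamini-Hochberg adjusted p = 0.264 by the edgeR quasi-likelihood test). It rested on 1 library: it was 0.53 without MIZ-1△POZ replicate 1 (adjusted p = 0.0270, edgeR) and 0.02 without MIZ-1△POZ replicate 2 (adjusted p = 0.921, edgeR).

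T cells carry both of these members, so T cell markers were read beside them. Of 16 T cell markers, 2 were higher and 14 did not pass the test, with a median log2 fold change of 0.02. They summed to 98.1 and 75.1 CPM in MIZ-1WT and 96.9 and 104.7 CPM in MIZ-1△POZ, with the lowest value in MIZ-1WT replicate 2, and their median was 0.31 without MIZ-1WT replicate 1 and -0.19 without MIZ-1WT replicate 2. *Lck*, the kinase of the T cell receptor, was at 36.6 ± 4.32 CPM in MIZ-1WT and 35.7 ± 2.01 CPM in MIZ-1△POZ, while *Cd28*, a costimulatory receptor, rose from 6.28 ± 0.743 to 14.3 ± 0.109 CPM (log2 fold change 1.19, adjusted p = 0.00182, edgeR). Of 9 NK cell markers, 2 were higher and 7 did not pass, with a median of 0.09. *Ms4a6b* alone stood at 65.3% and 91% of the summed T cell markers in MIZ-1WT and at 87.05% and 89.3% in MIZ-1△POZ. Against the summed macrophage markers it stood at 6.53% and 5.24% in MIZ-1WT and at 1.445% and 2.56% in MIZ-1△POZ. Against the pan-B cell markers it stood at 0.703% and 0.744% in MIZ-1WT and at 1.17% and 1.215% in MIZ-1△POZ. The part of T cells, NK cells and other cells in the levels of *Ms4a4b* and *Ms4a6b* was not tested.

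RefSeq promoter windows of GRCm38.p6, which run from 250 bases before a transcript start to 50 after it, were found for 6 of the 8 members, with 7 windows in all. They gave no entry for *Ms4a1* and *Ms4a6d*. The windows of *Ms4a4b* and *Ms4a4c* were 75.4% identical over 280 aligned bases, and those of *Ms4a6b* and *Ms4a6c* were 80.3% identical over 223. The other pairs of windows lay between 38.2% and 52%. The 250 bases before the start are printed for both pairs because the genes of a pair differ in level, most of all *Ms4a4c* and *Ms4a4b*, of which *Ms4a4c* fell and *Ms4a4b* did not pass the test. They lie at chr19:11443308-11443557 (*Ms4a4b*), chr19:11407411-11407660 (*Ms4a4c*), chr19:11518309-11518558 (*Ms4a6b*) and chr19:11469118-11469367 (*Ms4a6c*), all on the plus strand. Capitals mark GAGGAA, the core of PU.1 sites, and the octamer ATGCAAAT, which reads ATTTGCAT on the printed strand.
Ms4a4b upstream: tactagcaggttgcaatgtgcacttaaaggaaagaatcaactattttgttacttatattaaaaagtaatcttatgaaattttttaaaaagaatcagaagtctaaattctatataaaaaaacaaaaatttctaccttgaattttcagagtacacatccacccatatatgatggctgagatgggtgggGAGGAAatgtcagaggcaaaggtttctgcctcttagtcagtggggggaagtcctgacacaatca
Ms4a4c upstream: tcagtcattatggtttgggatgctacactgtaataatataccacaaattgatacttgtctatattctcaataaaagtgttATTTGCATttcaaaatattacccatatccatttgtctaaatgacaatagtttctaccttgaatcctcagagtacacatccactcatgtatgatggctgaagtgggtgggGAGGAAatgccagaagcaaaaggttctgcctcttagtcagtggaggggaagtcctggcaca
Ms4a6b upstream: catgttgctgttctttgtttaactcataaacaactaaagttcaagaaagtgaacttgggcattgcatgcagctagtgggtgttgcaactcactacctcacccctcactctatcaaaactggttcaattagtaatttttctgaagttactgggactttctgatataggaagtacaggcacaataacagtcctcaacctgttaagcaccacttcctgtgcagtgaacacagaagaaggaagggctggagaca
Ms4a6c upstream: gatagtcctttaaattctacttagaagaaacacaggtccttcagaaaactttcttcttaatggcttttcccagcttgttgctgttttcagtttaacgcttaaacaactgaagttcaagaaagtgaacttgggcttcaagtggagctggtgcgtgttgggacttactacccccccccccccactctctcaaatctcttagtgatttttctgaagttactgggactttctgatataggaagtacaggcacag
GAGGAA occurred in 3 of the 7 windows, at -64 in *Ms4a4b*, at -61 in *Ms4a4c* and at 43 past one of the starts of *Ms4a7*, and in 28.3% of all 32851 RefSeq windows. The octamer occurred at -170 in *Ms4a4c* and in 1.73% of all windows. The interferon-stimulated response element was also searched for on both strands, as were ATCGAT and ATCGGT, which are parts of the MIZ-1 consensus. No member window held their letters, while 3.44%, 0.925% and 2.33% of all windows did. These matches are letters only and carry no measure of binding.

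The myeloid members were scarce next to CD20 and were higher in the MIZ-1△POZ libraries, with *Ms4a4a* as the exception. Summed over the 4 genes, their level was 17.2 and 23.0 CPM in MIZ-1WT and 51.0 and 44.7 CPM in MIZ-1△POZ. *Ms4a7*, a gene of tissue macrophages and microglia, had 217 and 268 counts in MIZ-1WT and 699 and 771 in MIZ-1△POZ (ENSMUSG00000024672, protein coding, minus strand, chromosome 19 from 11321039 to 11336146). Its levels were 4.97 and 6.38 CPM in MIZ-1WT and 14.7 and 17.6 CPM in MIZ-1△POZ. Both MIZ-1△POZ libraries stood well above both MIZ-1WT libraries. The mean rose from 5.68 ± 0.991 CPM (SD, n = 2) to 16.1 ± 2.04 CPM, a log2 fold change of 1.51 (standard error 0.16, 95% confidence interval 1.11 to 1.90, Benjamini-Hochberg adjusted p = 0.00213 by the edgeR quasi-likelihood test).

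*Ms4a6d*, which acts in the inflammatory signalling of macrophages, had the largest fold change of the 8 members (ENSMUSG00000024679, protein coding, minus strand, chromosome 19 from 11586604 to 11604849). It had 67 and 74 counts in MIZ-1WT and 322 and 196 in MIZ-1△POZ, or 1.54 and 1.76 CPM against 6.77 and 4.47 CPM. The MIZ-1△POZ libraries were both higher but differed between themselves. The log2 fold change was 1.77 (standard error 0.25, 95% confidence interval 1.15 to 2.39, Benjamini-Hochberg adjusted p = 0.00474 by the edgeR quasi-likelihood test). Both *Ms4a6d* and *Ms4a7* were called in 9 of 9 alternatives, *Ms4a6d* between 1.44 and 2.05 and *Ms4a7* between 1.34 and 1.70.

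*Ms4a6c*, found in monocytes and macrophages, had 444 and 600 counts in MIZ-1WT and 1395 and 975 in MIZ-1△POZ (ENSMUSG00000079419, protein coding, plus strand, chromosome 19 from 11469366 to 11482192). That was 10.2 and 14.3 CPM against 29.3 and 22.2 CPM. The MIZ-1△POZ values were both higher, and each genotype had a wide spread. The mean rose from 12.2 ± 2.90 CPM (SD, n = 2) to 25.8 ± 5.02 CPM, a log2 fold change of 1.08 (standard error 0.20, 95% confidence interval 0.58 to 1.57, Benjamini-Hochberg adjusted p = 0.0102 by the edgeR quasi-likelihood test). Without MIZ-1WT replicate 1 the log2 fold change was 0.85 and the adjusted p 0.0525, so the call was lost there, and it held in the other 8 alternatives. *BE692007*, the gene on its opposite strand, was far more abundant and moved the other way, with 444 and 416 CPM in MIZ-1WT and 308 and 295 CPM in MIZ-1△POZ (log2 fold change -0.51, adjusted p = 0.00211, edgeR). *BE692007* was named after its values were seen.

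*Ms4a4a*, a partner of Dectin-1 on macrophages, was near the detection limit (ENSMUSG00000101389, protein coding, plus strand, chromosome 19 from 11375523 to 11392790). It had only 22 and 26 counts in MIZ-1WT and 12 and 21 in MIZ-1△POZ, or 0.504 and 0.619 CPM against 0.252 and 0.478 CPM. The MIZ-1△POZ values were the lower ones, without overlap. The log2 fold change of -0.63 did not pass (standard error 0.41, 95% confidence interval -1.63 to 0.38, Benjamini-Hochberg adjusted p = 0.265 by the edgeR quasi-likelihood test), and none of 9 alternatives called it.

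**Figure D3:**
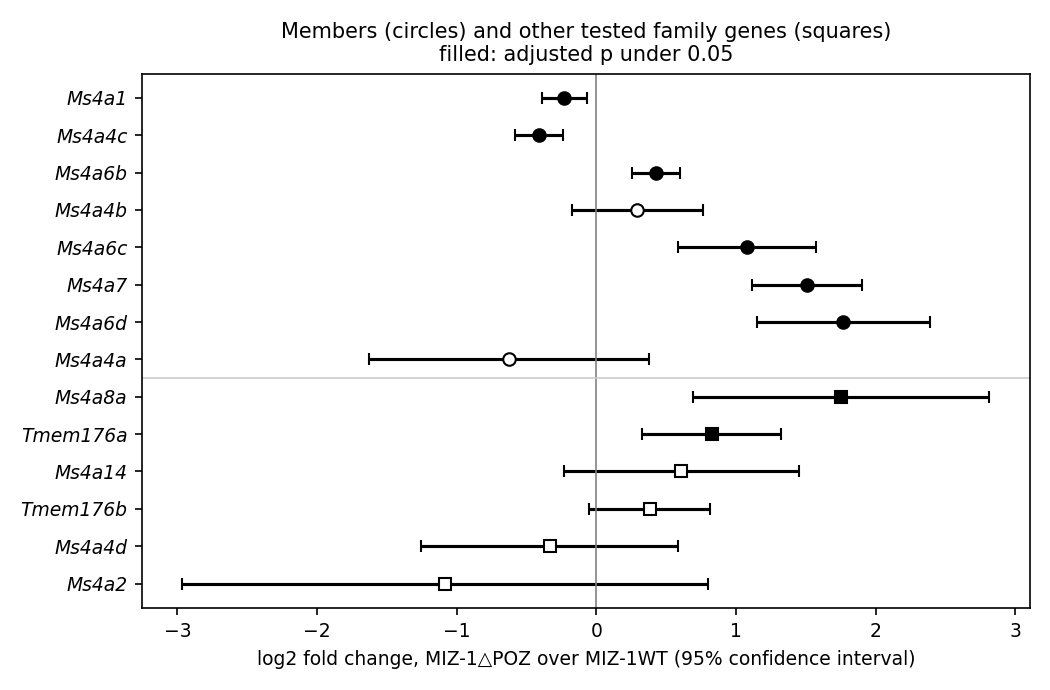
Log2 fold change of MIZ-1△POZ over MIZ-1WT with its 95% confidence interval derived from the edgeR test, for the 8 members (circles) and the 6 other tested family genes (squares), filled where the adjusted p was under 0.05. Ms4a1 and Ms4a4c lie left of 0, Ms4a6b, Ms4a6c, Ms4a7 and Ms4a6d lie right of it, and the interval of Ms4a4a crosses 0.

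Macrophage markers and most monocyte markers moved in the direction of these 3 members, and markers of other myeloid cells did so only in part. All 16 macrophage markers were higher in MIZ-1△POZ, with log2 fold changes from 1.67 to 2.67 and a median of 1.98. *Vcam1*, an adhesion molecule of splenic macrophages, rose from 305 ± 56.4 to 1207 ± 436 CPM, and *Slc40a1*, the iron exporter, from 102 ± 29.5 to 592 ± 200.7 CPM. Of 10 monocyte markers, 7 were higher and 3 did not pass, with a median of 2.14 and a summed level of 69.0 and 70.0 CPM in MIZ-1WT and 213 and 196 CPM in MIZ-1△POZ. *Treml4* rose from 14.1 ± 2.05 to 70.2 ± 24.1 CPM and *Ly6c2* from 15.1 ± 3.68 to 33.0 ± 0.499 CPM. Some monocyte markers, such as *Treml4*, were higher in MIZ-1△POZ replicate 1 than in replicate 2, and others were higher in replicate 2. Markers of conventional dendritic cells had 4 of 8 higher and 1 lower (median 0.86), those of plasmacytoid dendritic cells 1 of 5 higher (median -0.21), and those of neutrophils 2 of 6 tested higher (median 1.75, summed level between 4.28 and 16.8 CPM). The part of these cells in the rise of *Ms4a6c*, *Ms4a6d* and *Ms4a7* was not tested.

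Members and macrophage markers were also compared within each library, as a description with no test. As a share of the summed macrophage markers of the same library, *Ms4a6d* stood at 0.157% and 0.135% in MIZ-1WT and at 0.116% and 0.122% in MIZ-1△POZ. *Ms4a7* stood at 0.508% and 0.489% in MIZ-1WT and at 0.252% and 0.481% in MIZ-1△POZ, and *Ms4a6c* at 1.04% and 1.09% against 0.502% and 0.609%. All 3 shares were lower in MIZ-1△POZ, while the log2 fold change of *Ms4a6d*, 1.77, lay within the range of the single macrophage markers. Those of *Ms4a7*, 1.51, and *Ms4a6c*, 1.08, lay below the lowest of these markers. Between the MIZ-1△POZ libraries, the macrophage markers, *Ms4a6c* and *Ms4a6d* were higher in replicate 1, while *Ms4a7* was higher in replicate 2. The interval of *Ms4a4a*, which ended at 0.38, lay below the lowest macrophage marker at 1.67, a difference that was not itself tested.

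**Figure D4:**
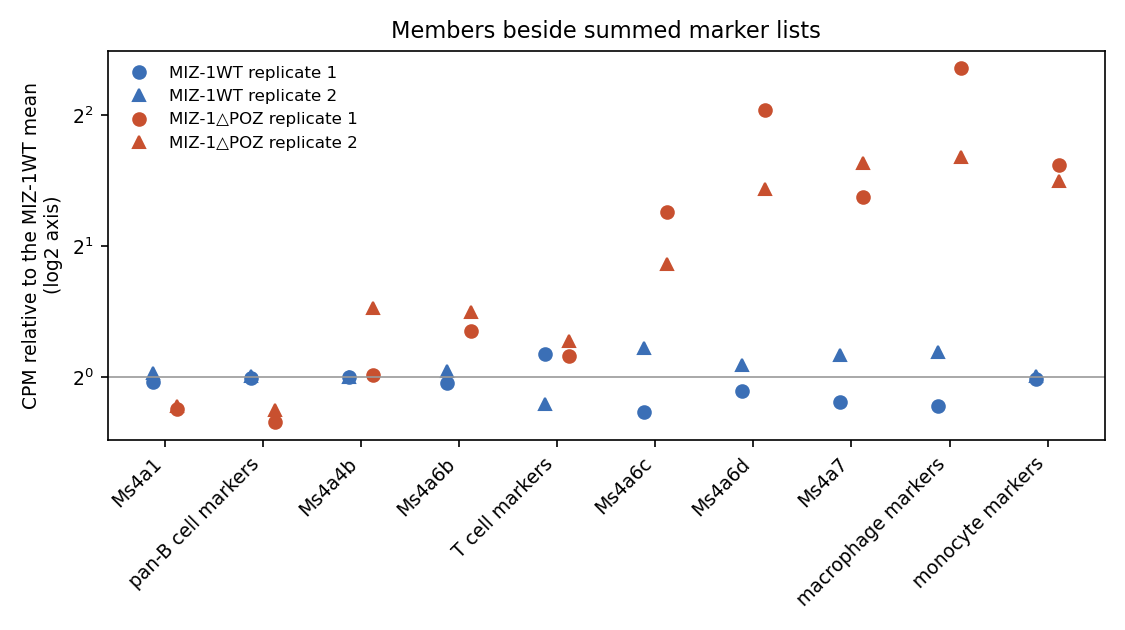
CPM in each library relative to the MIZ-1WT mean of the same item (log2 axis), for 6 members and for the summed pan-B cell, T cell, macrophage and monocyte markers. Ms4a1 and the pan-B cell markers lie below 1 in both MIZ-1△POZ libraries, at 0.845 and 0.860 for Ms4a1, while the macrophage markers reach 5.11 and 3.19, above Ms4a6c at 2.40 and 1.82.

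Levels between genes were compared per length, as RPKM over the annotated exons. *Ms4a1* stood first, at 633 ± 22.1 RPKM in MIZ-1WT and 539.8 ± 7 RPKM in MIZ-1△POZ (SD, n = 2). *Ms4a4c* followed at 211 ± 17.0 and 159 ± 6.65 RPKM, *Ms4a6b* at 14.8 ± 0.686 and 19.8 ± 1.44 RPKM, and *Ms4a6c* at 5.96 ± 1.41 and 12.6 ± 2.45 RPKM. *Ms4a7* was at 1.27 RPKM in MIZ-1WT and 3.62 in MIZ-1△POZ, *Ms4a6d* at 0.950 and 3.24, *Ms4a4b* at 0.721 and 0.884, and *Ms4a4a* at 0.672 and 0.437. The order was the same in both genotypes. Neighbours in it did not overlap, except *Ms4a4b* and *Ms4a4a* in MIZ-1WT and *Ms4a7* and *Ms4a6d* in MIZ-1△POZ. Over the transcript with the longest coding sequence, a length chosen after seeing the data, *Ms4a1* reached 1274 RPKM in MIZ-1WT, and *Ms4a4b* passed *Ms4a6d* there. Among 12282 protein-coding genes tested, *Ms4a1* ranked 8 and 6 by CPM in MIZ-1WT and 9 and 10 in MIZ-1△POZ. By RPKM it ranked lower, at 40 and 38 in MIZ-1WT and 57 and 56 in MIZ-1△POZ. It supplied between 88.6% and 89.8% of the CPM of all 8 members.

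The other 14 genes on a list of MS4A relatives were mostly silent in these cells. Only 6 of them were tested, and the other 8 had at most 2 counts in a library. *Ms4a8a*, a gene of macrophages and epithelia, was higher in MIZ-1△POZ, with 14 and 29 counts in MIZ-1WT and 100 and 57 in MIZ-1△POZ (log2 fold change 1.75, standard error 0.43, Benjamini-Hochberg adjusted p = 0.0239 by the edgeR quasi-likelihood test). *Tmem176a*, a related channel of dendritic cells and macrophages on chromosome 6, had 57 and 68 counts in MIZ-1WT and 122 and 115 in MIZ-1△POZ (0.83, standard error 0.20, adjusted p = 0.0233 from the same test). Both genes were higher in each MIZ-1△POZ library than in either MIZ-1WT library. The DESeq2 Wald test called *Ms4a8a* and not *Tmem176a*. *Ms4a8a* lost its call without MIZ-1WT replicate 1 and without MIZ-1△POZ replicate 1, and *Tmem176a* lost its call without any single one of the 4 libraries. *Tmem176b*, the neighbour of *Tmem176a*, had a log2 fold change of 0.38 (adjusted p = 0.134, edgeR). *Ms4a14* had one of 0.61, *Ms4a4d* one of -0.33 and *Ms4a2*, the beta chain of the IgE receptor of mast cells and basophils, one of -1.08 on 2 to 17 counts. None of these 4 passed the test.

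The changes did not run along the cluster in 1 direction. Of 35 annotated genes between *Ms4a10* and *Ms4a3*, 21 were tested, of which 6 were higher, 6 were lower and 9 did not pass. Over all genes tested, 21.1% were higher and 18.9% lower, so calls in both directions are not particular to the cluster. *Gm8369*, which lies between *Ms4a6c* and *Ms4a6b*, had 278 and 283 CPM in MIZ-1WT and 149 and 143 CPM in MIZ-1△POZ (log2 fold change -0.94, adjusted p = 0.000732, edgeR), so a gene that fell separates 2 that rose. *AW112010*, a noncoding RNA next to *Ms4a8a*, rose from 55.4 ± 4.94 to 88.0 ± 13.7 CPM (0.67, adjusted p = 0.00911, edgeR). *Gm8369* and *AW112010* were named after their values were seen. On the flanks, *Ccdc86* was at 17.9 ± 0.124 CPM in MIZ-1WT and 18.9 ± 2.41 CPM in MIZ-1△POZ (log2 fold change 0.08, adjusted p = 0.601, edgeR), and *Oosp2*, at 0.337 and 0.573 CPM, had a log2 fold change of 0.76 (adjusted p = 0.216, edgeR).

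The genes with the pattern most like *Ms4a1* were found by the root mean square difference of centred log2 CPM over the 4 libraries, among 8495 protein-coding genes with a mean of at least 10 CPM. They were *Pramef8* (0.00290), *Thap2* (0.00334), *Syk* (0.00361), *Tmf1* (0.00832) and *Sptan1* (0.00835), with log2 fold changes between -0.24 and -0.22. *Syk*, the kinase that B cell receptor signals pass through, went from 1423 to 1214 CPM. Nearest to *Ms4a7* were *Lacc1* (0.0957), *Tlr3* (0.117), *Rhob* (0.122), *Cip2a* (0.122) and *Hist1h2bj* (0.124), with log2 fold changes from 1.27 to 1.55. With only 4 libraries such likeness is a description, and many genes lie close by.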

How the data were processed

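RNA-seq of B220+ splenocytes from MIZ-1WT and MIZ-1△POZ mice gave 2 libraries per genotype, grouped as labelled. Per the labels, rRNA-depleted stranded libraries were sequenced as read pairs. Trimming by the authors used Trimmomatic, and they mapped the reads with TopHat2 (version 2.1.0 in the submitters' processing notes) to GRCm38, counted them per Ensembl gene with HTSeq and deposited raw counts without normalization. The strand setting and Ensembl release are not given in the sources used here. The summary lines stayed out of library totals: reads outside genes made up 21.1% to 27.2% of the table, ambiguous reads 0.281% to 0.302% and reads without a unique alignment 42.8% to 44.1%. Symbols came from GENCODE for 40254 of 41214 genes.

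A gene needed 10 or more counts in 2 or more libraries, and such genes were tested with edgeR version 4.0.16 in R version 4.3.3 (TMM scaling, quasi-likelihood test, Benjamini-Hochberg adjustment over 14554 genes, threshold 0.05). TMM factors ranged from 0.977 to 1.03 and the common dispersion was 0.00848. No gene set was tested. Alternatives were DESeq2's size factors, DESeq2's Wald test (version 1.42.0), no filter, a filter on a mean of 30 RPM, a replicate block, removal of immunoglobulin segments, and leaving out each library, plus a length from 1 transcript and pan-B cell markers without *Cd79a*, both added after seeing the data. The fits were tested on simulated counts. Sequences were aligned with MAFFT version 7.526.

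The members and lists were chosen with earlier results of these data known. Named genes were the members, tested relatives, the 2 most abundant genes of a list, the 5 patterns nearest to *Ms4a1* and *Ms4a7*, neighbours of the cluster and *Zbtb17*. Of each list the counts are given, some genes that meet this rule are not reported here, and of some lists no single gene is named.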

Additional observations from a re-analysis of the deposited data

How the results depend on the processing

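None of the 8 members changed sign under an alternative. Without 1 library, *Ms4a1* ranged from -0.27 to -0.19 and was not called, members called numbered from 3 to 6, other family genes called from 0 to 1, and genes called from 2204 to 5739 (1367 to 3017 higher, 837 to 2722 lower). In these fits 1 genotype has 1 library, assumed to vary like the other genotype, so fewer samples stand behind each call. A mean of at least 30 RPM left 6052 genes, of which 2746 were called (1464 higher, 1282 lower), with 3 members, 0 other family genes and 39 genes of the marker and context lists, against 68 with all tested genes. That filter removes scarce genes such as *Ms4a7*. Under it *Ms4a1* had its smallest fall among the alternatives, a log2 fold change of -0.15 (adjusted p = 0.0414, edgeR). The DESeq2 Wald test called 1 other family gene. Per transcript length, *Ms4a1* stood at 1274 RPKM against 633 RPKM.

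With the replicate number as a block, the same 6 members and 2 other family genes were called, *Ms4a1* had a log2 fold change of -0.23, and 4732 genes were called in all. The sources used here do not say whether same-numbered libraries shared a litter or day. Their deviations correlated at -0.07 over 14554 genes, which cannot settle it with 2 libraries per genotype. With 2 libraries per genotype, members with few counts such as *Ms4a4a* have wide intervals.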
